A study of Arabidopsis thaliana with 6 samples.

Results

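The anthocyanin genes described here are 10 loci of Arabidopsis thaliana, taken by locus identifier from a table of 34484 gene identifiers, and all 10 were present in it. They comprise 7 enzymes or pigment carriers (DFR, LDOX, TT19, UGT75C1, UGT79B1, 5MAT and UGT78D2) and 3 MYB regulators (PAP1, PAP2 and MYBL2). Total RNA was taken from mature stems, 42 days past flowering by the labels, and the growth conditions were 20 °C and days of 16 h light and 8 h dark. The study holds 3 libraries titled as mutants of γVPE, a vacuolar processing protease, and 3 titled as wild type. No source used here gives the mutant allele, the accession background or the number of plants behind each library. The columns named WT_V were taken as the mutant libraries because they were left once the columns named WT had been matched to the wild type titles, so the sets are called WT_V and WT throughout. Replicates 1 to 3 are numbered in the titles of each genotype, but the design text declares none, so p-values speak of library-to-library spread alone, and that spread may be technical.

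Anthocyanins are red to purple flavonoid pigments that are made at the cytosolic face of the endoplasmic reticulum and stored in the vacuole. The late enzymes of the pathway are switched on by a complex of an R2R3 MYB activator, a bHLH protein and the WD40 protein TTG1, and small MYB proteins and LBD proteins are known to hold the pathway back. In Arabidopsis the first late enzymes also serve the proanthocyanidins of the seed coat, and flavonols, like anthocyanins, carry sugars. Young stems are known to colour with anthocyanin under strong light or low nitrogen.

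The libraries differed far beyond the pigment pathway. The scaling total, worked out from the smallest steps between FPKM values (fragments scaled by gene length and by the library's total) was 47386000 to 51013000 in WT_V and 40308000 to 46467000 in WT, so a single read over 1 kb counted for 0.0196 to 0.0248 FPKM. GAMMA-VPE, the gene named by the titles, was at 328.1, 328.1 and 325.4 FPKM in WT_V, against 163.1, 164.4 and 162.7 FPKM in WT (exact two-sided permutation p = 0.1, the smallest that 3 against 3 allows). It was thus higher in the libraries taken as mutant, by 2.0 times (limma adjusted p = 2.48e-12). Whether columns or samples carry the wrong label was not tested, and every direction given here rests on the column names. Stem markers were present in both sets. The 7 fibre and xylem genes summed to 125.0 to 132.7 FPKM in WT_V and 42.58 to 43.78 FPKM in WT, and all 7 were called higher. The 4 green tissue markers summed to 8936 to 9114 FPKM in WT_V and 14840 to 14960 FPKM in WT. These 4 were called lower, although with quantile normalization 1 of them was called higher. Markers of other organs also moved with the sets. All 9 seed storage markers were called higher. They summed to 15550 to 15810 FPKM in WT_V, against 0 to 0.0353 FPKM in WT, where 8 of the 9 were listed at 0 in every library. All 9 passed the filter for testing, a mean of 1 FPKM over the 6 libraries, through WT_V alone. All 6 flower markers were also called higher, with sums of 118.5 to 123.7 FPKM in WT_V and 27.95 to 31.14 FPKM in WT. One of them, AG, passed the filter through WT_V alone. Beside these counts of markers, 51.9% of all tested genes were called higher and 24.1% lower. The part of these organs in the values below was not tested, and in bulk stem RNA fewer cells of a type and less RNA per cell cannot be told apart.

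The upstream windows of 5 of the enzymes are shown first, to set the letters before DFR, LDOX, 5MAT and UGT79B1 beside those before UGT78D2. Each window holds the 250 bases before the gene start in RefSeq TAIR10.1, on the gene's own strand, 5′ to 3′. Capitals mark CANNTG (the E-box, bound by bHLH proteins) and CCACCG, and the letters tell which is which. The windows lie at chr5:17166033-17166282 (DFR, minus strand), chr4:12006210-12006459 (LDOX, minus strand), chr3:11400333-11400582 (5MAT, minus strand), chr5:21938397-21938646 (UGT79B1, minus strand) and chr5:5609590-5609839 (UGT78D2, minus strand).
DFR: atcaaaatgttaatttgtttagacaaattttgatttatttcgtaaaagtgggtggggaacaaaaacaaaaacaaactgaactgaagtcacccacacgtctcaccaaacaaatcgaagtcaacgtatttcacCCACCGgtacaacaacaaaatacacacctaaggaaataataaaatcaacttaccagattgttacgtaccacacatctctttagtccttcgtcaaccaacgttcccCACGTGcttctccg
LDOX: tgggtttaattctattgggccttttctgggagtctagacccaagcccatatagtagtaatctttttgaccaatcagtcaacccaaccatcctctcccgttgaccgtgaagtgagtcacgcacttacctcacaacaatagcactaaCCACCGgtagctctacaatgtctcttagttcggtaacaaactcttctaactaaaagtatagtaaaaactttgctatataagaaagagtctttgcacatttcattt
5MAT: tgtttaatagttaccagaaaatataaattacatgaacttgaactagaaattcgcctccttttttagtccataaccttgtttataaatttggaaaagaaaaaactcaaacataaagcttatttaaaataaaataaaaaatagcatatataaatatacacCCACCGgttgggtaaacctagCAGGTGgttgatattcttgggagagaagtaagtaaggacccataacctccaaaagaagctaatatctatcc
UGT79B1: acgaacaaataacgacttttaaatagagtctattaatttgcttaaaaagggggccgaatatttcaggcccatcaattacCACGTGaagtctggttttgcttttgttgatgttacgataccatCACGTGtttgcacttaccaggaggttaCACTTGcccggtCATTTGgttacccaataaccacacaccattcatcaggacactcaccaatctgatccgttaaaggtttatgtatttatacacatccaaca
UGT78D2: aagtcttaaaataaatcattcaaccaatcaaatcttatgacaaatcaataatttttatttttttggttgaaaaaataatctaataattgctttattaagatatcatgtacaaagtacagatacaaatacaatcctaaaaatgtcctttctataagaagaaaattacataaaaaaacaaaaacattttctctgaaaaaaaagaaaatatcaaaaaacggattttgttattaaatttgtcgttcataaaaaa

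The hexamer CCACCG stood on the coding strand of 5 of the 10 windows, those of DFR, LDOX, TT19, UGT75C1 and 5MAT. Its first base lay at positions -119, -105, -88, -128 and -92 in that order, counted back from the base before the gene start as -1. Searched on both strands, it was in 3.3% of 27437 windows of the same length before nuclear protein-coding genes. The windows of TT19, UGT75C1 and MYBL2 each overlap a neighbouring gene and are not printed. The hexamer was chosen after the windows had been read, and in all 5 it overlapped a match to ANCNNCC, a MYB-type element that was in 48.8% of all windows. The G-box CACGTG, an E-box variant, was in the windows of DFR, UGT79B1 and PAP2 and in 6.5% of all windows, and UGT79B1 held 2 copies. CANNTG in any form was in 5 of the 10 windows and in 55.3% of all. ACGT, which every G-box contains, was in 3 member windows and in 44.1% of all. None of these 5 motifs was found in the UGT78D2 window, and MYBL2 and PAP1 held 1 ANCNNCC match each. Both strands were searched for every motif, and a match is a description of letters, not a site in use.

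**Figure D1:**
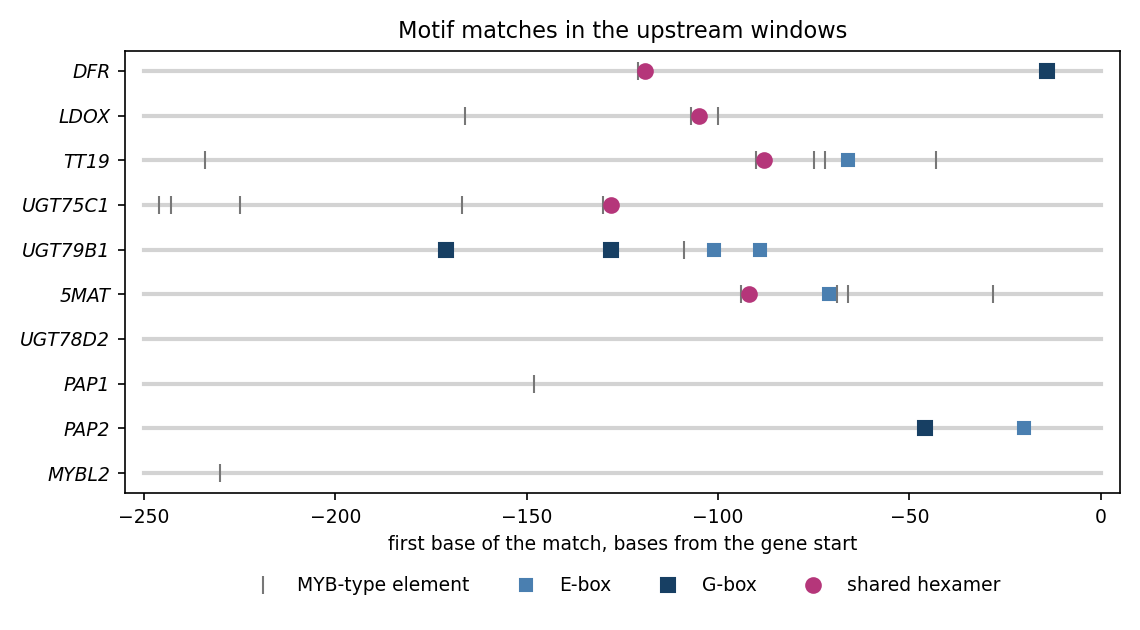
Positions of short sequence elements in the 250 bases before the start of each of the 10 genes, with the first base of each match on the x axis (bases from the gene start) and 1 line per gene. The shared hexamer (CCACCG) falls between -128 and -88 in 5 enzyme genes, 2 G-boxes stand in UGT79B1, and the line of UGT78D2 is bare.

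The enzymes that open the late pathway were higher in WT_V, with ratios of mean FPKM between 32.4 and 84.8. DFR (AT5G42800, chr5:17164093-17166032, minus strand), which reduces dihydroflavonols to leucoanthocyanidins, was at 105, 99.99 and 98.4 FPKM in WT_V and at 1.53, 1.71 and 1.60 FPKM in WT. LDOX (AT4G22880, chr4:12004726-12006209, minus strand), which turns these into coloured anthocyanidins, was at 81.0, 81.3 and 85.01 FPKM in WT_V and at 1.47, 0.810 and 0.637 FPKM in WT. TT19 (AT5G17220, chr5:5658416-5659661, plus strand), a glutathione S-transferase that binds the pigment on its way to the vacuole, was at 69.8, 70.4 and 72.2 FPKM in WT_V and at 2.44, 2.12 and 1.98 FPKM in WT. The sets lay far apart for each of the 3 genes, with every WT_V library above every WT library.

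The ratio of mean FPKM, WT_V over WT, was 62.5 for DFR, 84.8 for LDOX and 32.4 for TT19. On the log2(FPKM + 1) scale, on which low genes change by less than their ratio, the difference was 5.29 ± 0.0482 for DFR (SE, n = 3 per set, limma adjusted p = 2.42e-14). It was 5.43 ± 0.121 for LDOX (limma adjusted p = 2.58e-11) and 4.50 ± 0.0584 for TT19 (limma adjusted p = 3.77e-13). LDOX ranked 74th, DFR 81st and TT19 138th from the highest among 19144 tested genes, of which 0.507% were called with a log2 difference of 5 or more. TT19 overlaps a gene on the opposite strand and UGT75C1 overlaps 2. Without a stated strand setting their reads cannot be told apart from those of the neighbours. DFR, LDOX and TT19 are also needed for proanthocyanidins. The 5 seed coat markers, 4 of them genes of that branch and the other DELTA-VPE, a protease of the seed coat, summed to 98.41 to 100.1 FPKM in WT_V and to 1.339 to 1.848 FPKM in WT, and their part in these differences was not tested.

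The decorating enzymes averaged under 1 FPKM in WT and over 10 FPKM in WT_V. UGT75C1 (AT4G14090, chr4:8122188-8123835, minus strand), a glycosyltransferase that puts a further glucose on anthocyanins, was at 17.6, 19.4 and 18.4 FPKM in WT_V and at 0.783, 0.901 and 1.01 FPKM in WT. UGT79B1 (AT5G54060, chr5:21936746-21938396, minus strand), which adds xylose to the glucose already on the pigment, was at 18.5, 19.3 and 15.9 FPKM in WT_V and at 0.481, 0.209 and 0.281 FPKM in WT. 5MAT (AT3G29590, chr3:11398592-11400332, minus strand), an acyltransferase that adds malonyl groups to anthocyanins, was at 14.7, 12.9 and 13.1 FPKM in WT_V and at 0.214, 0.321 and 0.126 FPKM in WT. No WT library reached any WT_V library in these 3 genes.

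The WT values of 5MAT and UGT79B1 rest on few reads. With the exon lengths of TAIR10.1 the recovered reads of 5MAT were 1261, 1149 and 1078 in WT_V and 15, 26 and 9 in WT. Those of UGT79B1 were 1505, 1625 and 1244 in WT_V and 32, 16 and 19 in WT. The coefficient of variation among WT libraries was wide, at 44.4% for 5MAT and 43.6% for UGT79B1, against 7.23% and 9.91% for the same genes in WT_V. UGT75C1 had more reads in WT, with 1429, 1633 and 1437 in WT_V and 52, 69 and 68 in WT, and varied by 4.96% in WT_V and by 12.5% in WT. LDOX has 3 annotated transcripts, and its recovered reads were not all whole in either set. They came to 5586.03, 5803.23 and 5639.79 in WT_V and to 82.80, 52.69 and 36.56 in WT. LDOX varied by 2.74% in WT_V and by 45.1% in WT. DFR, with 7846, 7753 and 7090 reads in WT_V and 94, 121 and 100 in WT, varied by 3.25% in WT_V and by 5.57% in WT.

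The mean of 5MAT in WT_V was 61.6 times its WT mean, that of UGT79B1 55.3 times and that of UGT75C1 20.6 times. The log2 differences on the FPKM + 1 scale were 3.58 ± 0.0902 for 5MAT (SE, limma adjusted p = 6.42e-11), 3.84 ± 0.10 for UGT79B1 (limma adjusted p = 8.73e-11) and 3.36 ± 0.0743 for UGT75C1 (limma adjusted p = 2.35e-11). With a pseudocount of 0.1 the differences of 5MAT and UGT79B1 were 5.46 each and that of UGT75C1 was 4.22. These genes and LDOX averaged under 1 FPKM in WT and passed the filter through their WT_V values, so they had to differ once tested. Summed, DFR, LDOX and TT19 reached 251.6 to 255.7 FPKM in WT_V and 4.222 to 5.446 FPKM in WT, while UGT75C1, UGT79B1 and 5MAT reached 47.37 to 51.66 FPKM in WT_V and 1.413 to 1.477 FPKM in WT.

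**Figure D2:**
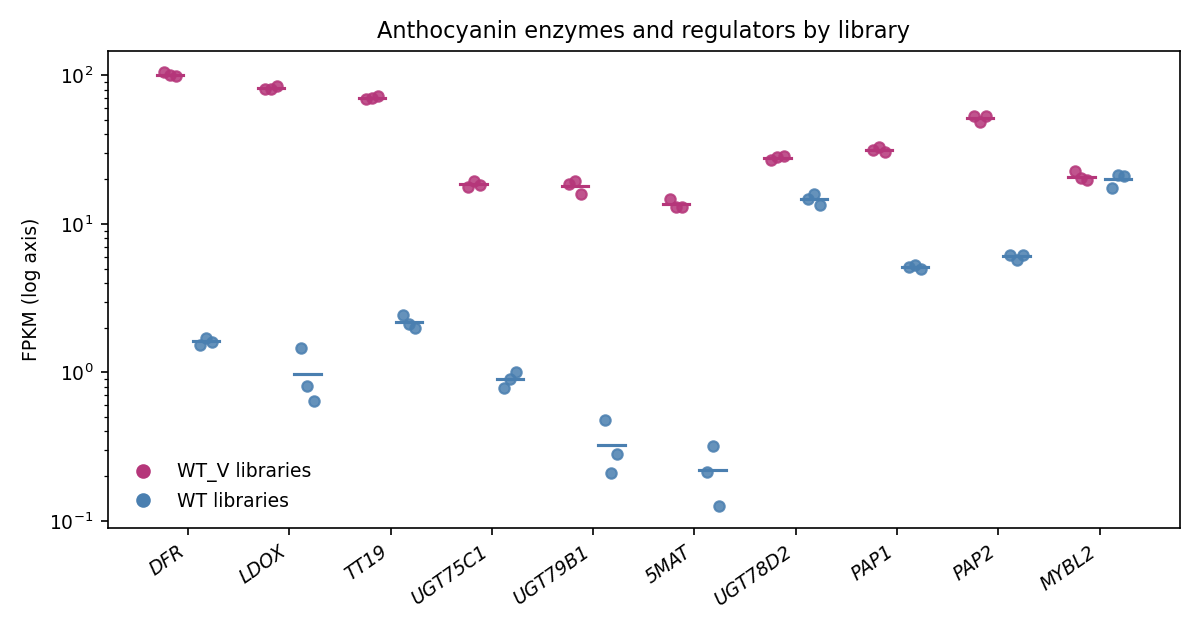
FPKM of the 10 genes on a log axis, with 1 point per library and a bar at the mean of each set of 3 (WT_V left, WT right). The points of WT_V lie above those of WT for every gene except MYBL2, where the sets overlap, and the gap is narrow for UGT78D2.

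UGT78D2 stood apart from the other enzymes. It encodes the glucosyltransferase that adds the first glucose to anthocyanidins and also acts on flavonols (AT5G17050, chr5:5607788-5609589, minus strand). It was at 27.1, 28.1 and 28.7 FPKM in WT_V and at 14.6, 15.9 and 13.4 FPKM in WT, so the sets did not overlap but the WT_V mean was 1.91 times the WT mean. The log2 difference was 0.89 ± 0.0575 (SE, n = 3 per set, limma adjusted p = 1.35e-07). The log2 ratio of DFR to UGT78D2 within a library, each with 1 FPKM added, was 1.91, 1.79 and 1.74 in WT_V and -2.62, -2.64 and -2.47 in WT. DFR was thus the more abundant of the pair in every WT_V library and the less abundant in every WT library. The difference of 4.39 gave an exact two-sided permutation p = 0.1 and an adjusted p = 0.1 over 3 pairs by exact permutation, which is the smallest p that 3 against 3 allows.

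The 2 MYB activators were higher in WT_V by several times. PAP1 (MYB75, AT1G56650, chr1:21233555-21235292, minus strand), which drives anthocyanin production in shoots, was at 31.4, 33.1 and 30.3 FPKM in WT_V and at 5.15, 5.26 and 4.95 FPKM in WT. PAP2 (MYB90, AT1G66390, chr1:24763941-24765541, plus strand), its close relative, was at 53.3, 48.2 and 53.2 FPKM in WT_V and at 6.17, 5.73 and 6.21 FPKM in WT. Both genes were well detected in every WT library, and PAP2 exceeded PAP1 in each of the 6 libraries. The WT_V mean was 6.18 times the WT mean for PAP1, and the log2 difference was 2.41 ± 0.0514 (SE, n = 3 per set, limma adjusted p = 1.75e-11). It was 8.55 times for PAP2, with a log2 difference of 2.90 ± 0.0523 (limma adjusted p = 5.03e-12).

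The log2 ratio of PAP1 to PAP2, with 1 FPKM added to each, was -0.74, -0.53 and -0.79 in WT_V and -0.22, -0.11 and -0.28 in WT. The balance leaned further to PAP2 in WT_V, by -0.49, and the sets did not overlap (exact two-sided permutation p = 0.1, adjusted p = 0.1 over 3 pairs by exact permutation). PAP1 and PAP2 share 84.3% of 747 aligned coding bases, and PAP2 shares 91.4% of 420 aligned bases with MYB114, which lies beside it. No source used here says how reads that match several genes were treated, so the split of reads among these genes is uncertain. The other members of this small family were barely detected, MYB113 at up to 0.083 FPKM in WT_V and 0.091 FPKM in WT, and MYB114 at up to 0.134 FPKM in WT_V and 0.661 FPKM in WT.

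MYBL2, the repressor among the 3 MYB genes, showed no detected difference. MYBL2 (AT1G71030, chr1:26795052-26796532, minus strand) encodes a single-repeat MYB protein that interferes with the activator complex. It was at 22.6, 20.2 and 19.7 FPKM in WT_V and at 17.5, 21.5 and 20.9 FPKM in WT, so the sets overlapped. The log2 difference was 0.06 ± 0.0761 (SE, n = 3 per set, limma adjusted p = 0.472), and it was -0.13 under median-of-ratios scaling and -0.10 after quantile normalization, so its direction depends on the scaling. Relative to MYBL2 in the same library, PAP1 was the more abundant in every WT_V library, with log2 ratios of 0.46, 0.68 and 0.60, and the less abundant in every WT library, with log2 ratios of -1.59, -1.85 and -1.88. This difference of 2.35 does not depend on the scaling between libraries apart from the added 1 FPKM (exact two-sided permutation p = 0.1, adjusted p = 0.1 over 3 pairs by exact permutation).

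Of the 10 genes 9 were called higher in WT_V and 0 lower by limma at an adjusted p of 0.05, where 51.9% of 19144 tested genes were called higher, 24.1% lower and 76.0% in either direction. A call of higher was thus common across the table, and 4 of the 10 genes passed the filter through WT_V alone. Over all tested genes 4.11% were called with a log2 difference of at least 2, and DFR, LDOX, TT19, UGT75C1, UGT79B1, 5MAT, PAP1 and PAP2 were among them. A difference of at least 3 was called in 1.92% of tested genes and in the first 6 of these 8. The median log2 difference of the 10 genes was 3.47, and that of all tested genes was 0.17. The values of the sets did not overlap for 9 of the 10 genes and for 77.6% of tested genes. Among all called genes 68.3% were higher, but 48.7% were under median-of-ratios scaling, where the median of all tested genes was -0.01. After quantile normalization 40.6% were, and the median was -0.08. The 9 calls held under both scalings.

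**Figure D3:**
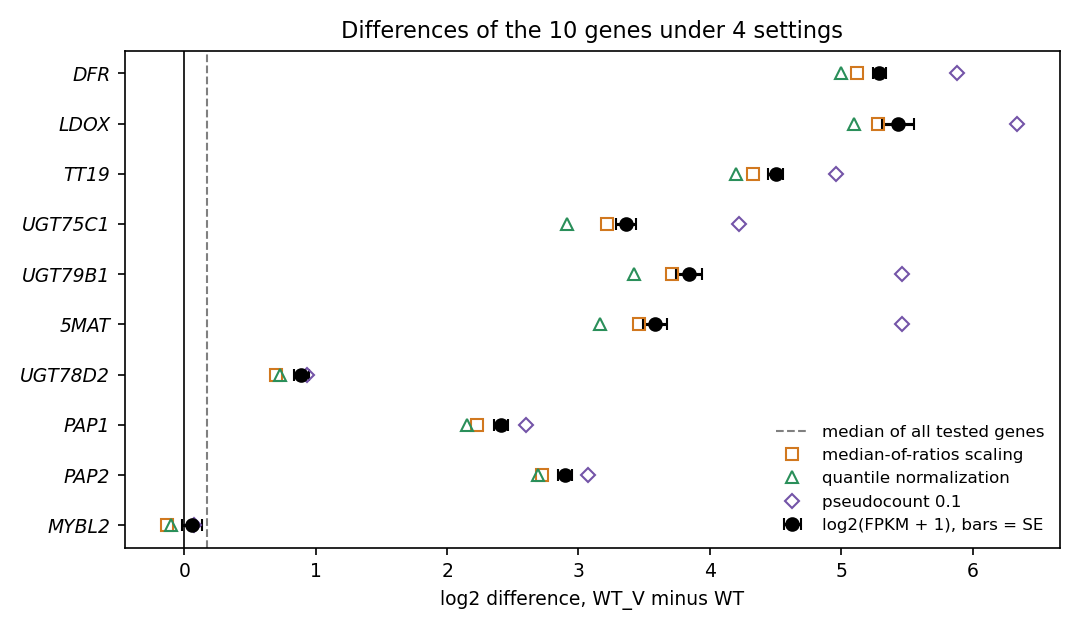
Log2 difference of each of the 10 genes, WT_V minus WT, on log2(FPKM + 1) with bars for the SE (n = 3 per set), beside the values with median-of-ratios scaling, quantile normalization and a pseudocount of 0.1. The dashed line is the median of all tested genes, 0.17. The scalings shift all points slightly to the left and carry MYBL2 across 0, and the small pseudocount moves the genes that are low in WT to the right.

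The order of the genes by level differed between the sets, although 5MAT came last in both. In WT_V the mean FPKM ran from DFR at 101 through LDOX at 82.4, TT19 at 70.8, PAP2 at 51.6, PAP1 at 31.6, UGT78D2 at 28.0, MYBL2 at 20.8, UGT75C1 at 18.5 and UGT79B1 at 17.9 to 5MAT at 13.6. UGT75C1 and UGT79B1 were the neighbours whose ranges overlapped in WT_V. In WT the order began with MYBL2 at 19.9 and UGT78D2 at 14.6 FPKM, followed by PAP2 at 6.04, PAP1 at 5.12, TT19 at 2.18, DFR at 1.62, LDOX at 0.971, UGT75C1 at 0.897, UGT79B1 at 0.323 and 5MAT at 0.220. There the ranges of LDOX and UGT75C1 overlapped, as did those of UGT79B1 and 5MAT. The repressor and the shared glucosyltransferase thus headed the list in WT. DFR, LDOX and TT19 headed it in WT_V, where UGT75C1, UGT79B1 and 5MAT came last.

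The genes nearest in pattern were found by the root mean square distance in log2(FPKM + 1) over the 6 libraries, a measure that takes in both the level and the difference between the sets. Nearest to DFR were AT3G06955, a noncoding RNA gene, at 0.365, AT1G52810 at 0.386 and AT5G59170 at 0.475. Nearest to PAP1 were THA1 at 0.114, ALN at 0.122 and AAP7 at 0.127. Nearest to MYBL2 were PTB1 at 0.0695, AT1G52930 at 0.0708 and AT4G37880 at 0.0773.

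The partners of the MYB activators differed among themselves. TT8, the bHLH partner that PAP1 and TT2 act with, was at 9.25, 9.10 and 9.40 FPKM in WT_V and at 0.198, 0.290 and 0.608 FPKM in WT (log2 difference 2.92, limma adjusted p = 1.67e-09). TT8 and TTG2 averaged under 1 FPKM in WT and passed the filter through WT_V alone, so they had to differ once tested. EGL3, another bHLH partner, averaged 3.10 ± 0.470 FPKM in WT_V and 1.14 ± 0.267 FPKM in WT (SD, n = 3 each, limma adjusted p = 3.46e-05), a call that ended with quantile normalization (limma adjusted p = 0.0695). GL3, the bHLH gene best known from leaf hairs, was below the filter at 0.360 ± 0.0266 FPKM in WT_V and 0.0309 ± 0.0274 in WT. TTG1, the WD40 scaffold of the complex, was at 24.4, 24.4 and 24.0 FPKM in WT_V and at 23.5, 26.2 and 27.7 FPKM in WT, and the sets overlapped. It was not called (log2 difference -0.08, limma adjusted p = 0.190), although with median-of-ratios scaling it was called lower (log2 difference -0.28, limma adjusted p = 0.000937) and likewise with quantile normalization (-0.21, limma adjusted p = 0.00416). TTG2, a WRKY factor downstream of the complex, averaged 3.54 ± 0.251 FPKM in WT_V and 0.386 ± 0.255 in WT. HY5, a light-signalling bZIP activator, was called higher by a log2 difference of 0.19 that was 0 under median-of-ratios scaling and -0.05 after quantile normalization. In all, 4 of the 5 tested partners and activators were called higher and 0 lower, where 51.9% of all tested genes were called higher and 24.1% lower. The counts were 3 higher and 1 lower with median-of-ratios scaling, and 2 higher and 1 lower with quantile normalization. Over all 19144 tested genes they were 6850 higher and 7213 lower, and 5777 higher and 8438 lower. MYB113, MYB114 and GL3 did not pass the filter.

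The repressors were split. Of 14 tested genes 6 were called higher, 5 lower and 3 in neither direction, where 51.9% of all tested genes were called higher and 24.1% lower. The median log2 difference of the 14 was -0.02. The split was 3 higher to 6 lower under median-of-ratios scaling and 4 higher to 9 lower after quantile normalization. Over all 19144 tested genes these scalings gave 6850 higher to 7213 lower and 5777 higher to 8438 lower. The 3 LBD genes, which encode nitrogen-responsive proteins known to repress PAP1 and PAP2, were all lower in WT_V under each scaling. LBD37 was at 50.2, 50.5 and 50.0 FPKM in WT_V and at 93.5, 92.4 and 88.0 FPKM in WT. LBD39 was at 54.2, 50.8 and 54.7 FPKM in WT_V and at 109.4, 109.4 and 109.9 FPKM in WT. LBD38 averaged 21.6 ± 0.430 FPKM in WT_V and 32.0 ± 1.23 FPKM in WT (SD, n = 3 each). The log2 differences were -1.03 ± 0.0308 for LBD39 (SE, limma adjusted p = 2.46e-10), -0.85 ± 0.0289 for LBD37 (limma adjusted p = 7.33e-10) and -0.54 ± 0.0398 for LBD38 (limma adjusted p = 3.83e-07). No WT_V library reached a WT library in any of these 3 genes.

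Other repressors went in both directions. MYB7 and MYB32, repressor-type MYB genes of phenylpropanoid metabolism, were lower in WT_V at 19.7 ± 0.405 and 11.2 ± 0.730 FPKM, against 26.4 ± 0.321 and 16.6 ± 0.528 FPKM in WT (SD, n = 3 each). Their relative MYB4 was higher at 22.5 ± 1.40 FPKM in WT_V, against 11.4 ± 0.625 in WT (limma adjusted p = 1.03e-07). TRY, a single-repeat MYB gene of hair patterning, averaged 2.13 ± 0.252 FPKM in WT_V and 0.456 ± 0.230 in WT, and it passed the filter through WT_V alone. Its relatives CPC and ETC1 were tested and not called, at 2.65 ± 0.383 and 0.894 ± 0.0180 FPKM in WT_V and 2.84 ± 0.576 and 1.24 ± 0.783 FPKM in WT. Both were called lower with quantile normalization, where 8438 of 19144 tested genes were. ETC1 passed the filter through WT alone, where its libraries ran from 0.413 to 1.973 FPKM. COP1, the ubiquitin ligase that removes PAP1 and PAP2 proteins in darkness, averaged 21.0 ± 0.613 FPKM in WT_V and 16.5 ± 1.04 in WT.

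**Figure D4:**
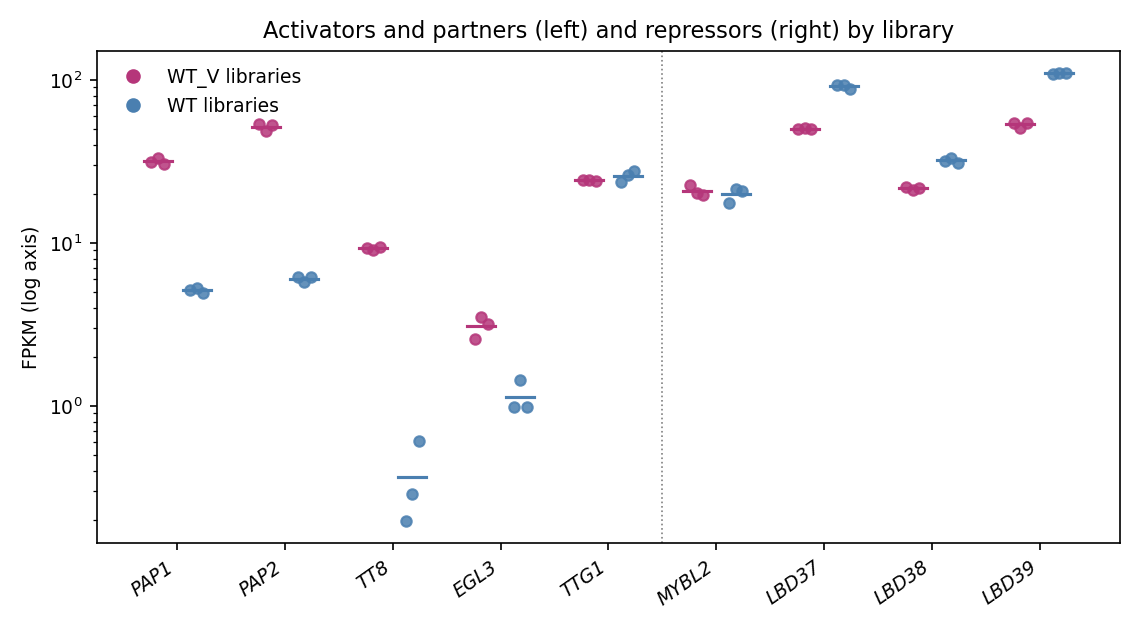
FPKM of activators and partners (left of the dotted line) and repressors (right) on a log axis, 1 point per library and a bar at each mean of 3 (WT_V left, WT right). PAP1, PAP2, TT8 and EGL3 lie higher in WT_V, TTG1 and MYBL2 overlap, and LBD37, LBD38 and LBD39 lie lower in WT_V. The genes drawn are a selection. Of the 14 listed repressors, 6 were called higher and 5 lower, and only LBD37, LBD38 and LBD39 are drawn. GL3, TTG2, HY5, MYB113 and MYB114 are also left out.

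Upstream of DFR, the early flavonoid enzymes were higher in WT_V for all 4 tested genes, against 51.9% of all tested genes, at a median log2 difference of 2.89. TT7, a hydroxylase that adds to the B ring of the pigment's precursors, was at 33.4, 33.2 and 33.6 FPKM in WT_V and at 1.58, 2.34 and 2.40 FPKM in WT. CHI, the chalcone isomerase gene, was at 20.0, 20.4 and 20.7 FPKM in WT_V and at 6.58, 6.54 and 6.21 FPKM in WT, a ratio of means of 3.16. CHIL, a helper of chalcone synthesis, had a ratio of 6.23, and CHS, which commits carbon to flavonoids, had a ratio of 34.8. CHS overlaps a gene on the opposite strand, so its reads carry the same limit as those of TT19. F3H, which supplies the substrate of DFR, was listed at 0 in all 6 libraries. An annotated noncoding RNA gene on the opposite strand, also listed at 0 in all 6, covers 94.5% of its span in TAIR10.1. AT1G06000 and UGT73C6 of the flavonol list were also listed at 0 in all libraries, and noncoding RNA genes on the opposite strand cover 99.6% of one and the whole of the other. No source used here gives the strand setting of the counting, so a value of 0 for these genes is not read as absence of the transcript.

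The entry enzymes of phenylpropanoid metabolism differed less. All 8 were called higher, against 51.9% of all tested genes, at a median log2 difference of 0.82, although PAL3 was called lower with quantile normalization (-0.33). PAL4 had a ratio of means of 8.83, followed by 4CL3 at 6.42, PAL1 at 3.08 and PAL2 at 1.95. 4CL3 is the coumarate ligase tied to flavonoids, and it passed the filter through WT_V alone and averaged 4.12 ± 0.359 FPKM in WT_V and 0.642 ± 0.121 FPKM in WT (SD, n = 3 each).

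The competing branches were also higher in WT_V. In the flavonol list all 6 tested genes were called higher, against 51.9% of all tested genes, with UGT78D1 at -0.04 under median-of-ratios scaling. MYB11, MYB12 and MYB111, 3 of these 6, passed the filter through WT_V alone and had to be higher, and MYB111 was not called after quantile normalization (limma adjusted p = 0.0549). FLS1, which takes dihydroflavonols away from DFR into flavonols, was at 20.4, 20.3 and 20.0 FPKM in WT_V and at 1.73, 2.0 and 2.03 FPKM in WT. The ratio of means was 10.5 for FLS1 and 62.5 for DFR. The flavonol regulators were lowly expressed, with MYB11 at 2.89 ± 0.555 FPKM in WT_V and 0.185 ± 0.0747 in WT, MYB12 at 1.89 ± 0.313 in WT_V and 0.265 ± 0.0836 in WT, and MYB111 at 2.32 ± 0.107 in WT_V and 0.697 ± 0.263 in WT (SD, n = 3 each).

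In the proanthocyanidin list all 5 tested genes were called higher, against 51.9% of all tested genes, and 3 of 8 did not pass the filter. BAN, TT10 and TT2, 3 of these 5, passed it through WT_V alone and had to be higher. BAN, which diverts anthocyanidins into proanthocyanidins, was at 12.03, 10.9 and 12.7 FPKM in WT_V and at 0.330, 0.241 and 0.375 FPKM in WT. TT10, a laccase-type oxidase of the seed coat, was at 26.5, 27.5 and 25.3 FPKM in WT_V and was listed at 0 in every WT library. TT2, the seed coat MYB that pairs with TT8, averaged 2.11 ± 0.498 FPKM in WT_V and 0.226 ± 0.0144 in WT. AHA10, a proton pump of the seed coat vacuole, averaged 2.07 ± 0.145 FPKM in WT_V and 1.18 ± 0.288 in WT, with a log2 difference of -0.19 under quantile normalization. TT8, DFR, LDOX and TT19 serve this branch as well as anthocyanins, and which of the branches their transcripts came from was not tested.

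Further decoration and uptake genes differed little beside DFR. All 4 other genes of acylation and glucosylation were called higher, against 51.9% of all tested genes. The log2 differences of BGLU10 and AT1G03495 were 0.17 and 0.31, where the median of all tested genes was 0.17. BGLU10 was at -0.03 under median-of-ratios scaling. AT1G03940, annotated as an acyltransferase of the HXXXD type, averaged 19.7 ± 0.707 FPKM in WT_V and 6.13 ± 0.320 in WT, whereas AT1G03495 of the same annotation averaged 20.5 ± 0.392 in WT_V and 16.4 ± 0.469 in WT (SD, n = 3 each). SCPL10, a serine carboxypeptidase-like gene, averaged 10.4 ± 0.164 FPKM in WT_V and 3.83 ± 0.704 in WT. Of the vacuolar uptake genes ABCC2, a transporter able to carry anthocyanin glucosides, was at 37.7, 38.3 and 37.7 FPKM in WT_V and at 17.0, 17.0 and 16.4 FPKM in WT (log2 difference 1.13, limma adjusted p = 4.12e-10). Its relative ABCC1 and the genes DTX35 and TT9 were called higher by log2 differences of 0.13, 0.17 and 0.29, and none of these was called with median-of-ratios scaling.

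**Figure D5:**
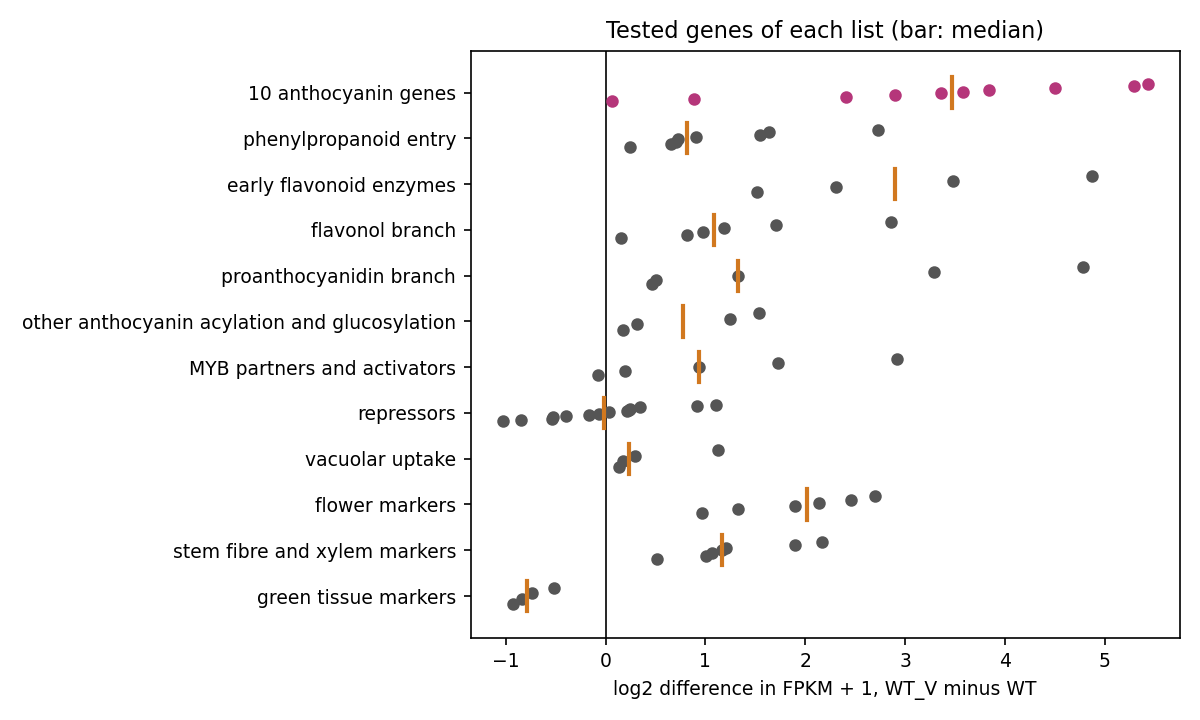
Log2 difference in FPKM + 1, WT_V minus WT, of every tested gene in each list, 1 point per gene and a bar at the list's median. The seed storage and seed coat lists are left out. The 10 anthocyanin genes have a median of 3.47 with MYBL2 and UGT78D2 as the low points, the repressors straddle 0, and the 4 green tissue markers lie below 0, although with quantile normalization 1 of them was called higher.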

How the data were processed

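RNA-seq of 6 mature stem libraries was deposited by the authors as 1 table of FPKM values per gene. Bowtie2 2.2.3, TopHat2 2.0.12 and HTSeq 0.6.1 are named per the submitters' processing notes, and no source used here gives the build, annotation or strand setting. The steps of the FPKM values gave whole reads for 99.02% to 99.25% of genes with 1 transcript, within 0.02 reads, from which the scaling totals and recovered reads were computed with TAIR10.1 exon lengths. Of 34484 identifiers 32548 matched a RefSeq TAIR10.1 locus. Values were tested as log2(FPKM + 1) with limma 3.58.1 (R 4.3.3, intensity trend), for 19144 genes with a mean of at least 1 FPKM, with Benjamini-Hochberg adjustment over all of them and a threshold of 0.05, and the fit was tested on simulated data. Ratios between genes were compared by exact permutation over libraries.

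The 10 genes and the 13 other lists (87 further genes) were chosen with earlier results of these data known. Named were the 10 genes, up to 4 called genes per list with the greatest difference, tested genes going against their list, and the 3 genes nearest to DFR, PAP1 and MYBL2. F3H, AT1G06000, UGT73C6, PAL3, UGT78D1, GL3, MYB113, MYB114 and COP1 were named after their values were seen. Alternatives were other pseudocounts, filters and scalings, a fit with no trend, nuclear loci alone, a replicate block and leaving out each library. Upstream windows and coding sequences came from RefSeq TAIR10.1, used with the table through locus identifiers alone. Within a set, libraries differed beyond sampling noise, so none was counted as a duplicate.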

Additional observations from a re-analysis of the deposited data

How the results depend on the processing

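The 9 calls among the 10 genes were made under each of the 15 alternatives, where 51.9% of 19144 tested genes were called higher in the main fit. LDOX, UGT75C1, UGT79B1 and 5MAT passed the main filter through WT_V alone. With a minimum of 5 FPKM so did DFR and TT19, at WT means of 1.62 and 2.18 FPKM. Genes that passed in this way had to differ once tested. MYBL2 was not called in any of the 15 alternatives. Its log2 difference was below 0 at -0.13 (median-of-ratios scaling) and -0.10 (quantile normalization). Leaving out 1 library gave -0.03 (without WT replicate 1) to 0.12. Over all tested genes, 7213 were called lower with median-of-ratios scaling, against 4619, and quantile normalization gave 5777 higher and 8438 lower, against 9931 and 4619. Leaving out 1 library gave 9232 to 9861 higher and 4313 to 4431 lower. The cause of these shifts was not tested.

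Same-numbered libraries showed no common deviation, since their deviations from the set means correlated at -0.016, -0.016 and 0.014. Whether they have more than a number in common was not tested. With the replicate block 9868 genes were called higher and 4609 lower, and 9 of the 10 genes were called higher. With a minimum mean of 5 FPKM fewer listed genes were tested. All 3 tested genes of the flavonol list, all 3 of the proanthocyanidin list and 1 of 2 MYB partners were called higher. Over all 14427 genes tested with that filter, 7037 were called higher. Depth limits the WT values of 5MAT and UGT79B1, whose reads ranged from 9 to 32. The protein comparison was not run, and coding sequences were compared instead.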

Other observations

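The hexamer CCACCG was set against all tested genes that had a window, as a description. Of 659 such genes 51.3% were called higher and 3.34% were called with a log2 difference of at least 2, whereas the shares over all 18480 genes with a window were 52.7% and 4.12%. For the G-box CACGTG the shares were 57.9% and 6.97% of 1434 genes. CCACCG was in 0 of the 5 windows of the early flavonoid list and 0 of the 8 of the proanthocyanidin list. It was in 1 window each of the flavonol, acylation and glucosylation, repressor and vacuolar uptake lists (UGT78D3, BGLU10, COP1 and DTX35). CACGTG was in 3 of the 5 early flavonoid windows, those of F3H, CHIL and CHS. It was also in 5 of the 9 seed storage windows, in 0 of the 14 repressor windows and in 6.5% of all windows.

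DELTA-VPE, a relative of GAMMA-VPE known from the seed coat, was at 57.1, 58.3 and 59.0 FPKM in WT_V and at 0.042, 0.074 and 0.195 FPKM in WT.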
